A study of Mus musculus with 4 samples.

Results

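The genes described here mark the granulocyte and monocyte lineages, and their transcripts were read in RNA of mouse bone marrow hematopoietic stem cells (HSCs). They were a fixed list of 44 genes, of which 40 had a row among the 23450 genes of the deposited files (Cebpb, Cebpd, Irf8 and Igsf6 were not analysed here). The long-term HSC group (LT-HSC), 2 libraries, was gated as CD48-, CD34- and CD150+ with a high level of the tetraspanin CD9. The short-term HSC group (ST-HSC), 2 libraries, was gated as CD48- and CD150+ with a low level of CD9, and no CD34 gate is named for it. Each library held RNA of 2000 cells, and no strain, age or sex is given. It is not stated whether the libraries came from separate mice, so p-values measure the spread between these libraries alone, and that spread may be technical.

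Neutrophils and monocytes descend from HSCs by way of committed granulocyte-monocyte progenitors. PU.1 (gene Sfpi1, now Spi1) and C/EBP alpha (gene Cebpa) open the program, Gfi1 favours the granulocyte branch, and C/EBP epsilon (gene Cebpe) is required for the later granule stage. The granules are filled in a fixed order, with myeloperoxidase and serine proteases in the primary granules of promyelocytes, then lactoferrin, cathelicidin and lipocalin in the secondary granules of myelocytes. Monocytes and macrophages carry receptors, complement proteins and lysosomal enzymes instead. Because the granule transcripts are made at separate stages, the genes are grouped below by the stage at which they are known.

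Levels are in CPM, the reads of a gene scaled to a library total of 1000000 reads, and a gene at the lowest value of a file held at most 1 read and was set to 0. The libraries held 13077396 and 16156007 reads in LT-HSC and 15042986 and 14835764 reads in ST-HSC, so that 3 reads, taken as the limit that a count of 0 allows, came to between 0.186 and 0.229 CPM. This limit covers counting error only. By limma, 0 of 12608 tested genes had an adjusted p under 0.05 (the minimum was 0.718). Without adjustment, 368 genes were higher and 452 lower in LT-HSC at p under 0.05 (2.92% and 3.59%), and limma-voom on the recovered reads gave 0 genes past the threshold and 595 past the unadjusted one. Of 10 HSC marker genes, all were read in every library, with summed levels of 3956 and 4096 CPM in LT-HSC, against 2924 and 3186 CPM in ST-HSC. All fold changes below are values, not calls.

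The promoters of 4 secondary granule genes are shown because their transcripts appeared together in ST-HSC 1, and those of Mpo and Prtn3 because these genes of the same granule behaved differently. Each line gives the 250 bases before the gene's start, read 5′ to 3′ on the gene's strand, from RefSeq on GRCm38.p6, another build than the mm9 of the deposited values. Capitals mark TTGCNNAA, a C/EBP-type motif, and GAGGAAG, a PU.1-type motif, searched on both strands.
Camp, chr9:109849457-109849706, minus strand: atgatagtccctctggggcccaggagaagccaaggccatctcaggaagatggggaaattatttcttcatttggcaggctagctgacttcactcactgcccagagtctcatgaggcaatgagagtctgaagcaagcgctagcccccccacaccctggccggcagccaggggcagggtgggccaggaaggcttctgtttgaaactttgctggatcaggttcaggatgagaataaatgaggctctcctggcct
Ngp, chr9:110419558-110419807, plus strand: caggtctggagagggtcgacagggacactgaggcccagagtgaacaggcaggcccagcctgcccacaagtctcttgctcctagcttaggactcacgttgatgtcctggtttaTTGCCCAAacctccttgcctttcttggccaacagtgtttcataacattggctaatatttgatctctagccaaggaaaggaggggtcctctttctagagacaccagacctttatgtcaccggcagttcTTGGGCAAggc
Ltf, chr9:111019042-111019291, plus strand: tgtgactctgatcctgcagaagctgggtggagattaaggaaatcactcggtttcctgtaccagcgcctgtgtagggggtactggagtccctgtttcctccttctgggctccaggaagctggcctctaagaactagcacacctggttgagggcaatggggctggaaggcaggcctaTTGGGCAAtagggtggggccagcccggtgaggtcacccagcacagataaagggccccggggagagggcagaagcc
Lcn2, chr2:32387740-32387989, minus strand: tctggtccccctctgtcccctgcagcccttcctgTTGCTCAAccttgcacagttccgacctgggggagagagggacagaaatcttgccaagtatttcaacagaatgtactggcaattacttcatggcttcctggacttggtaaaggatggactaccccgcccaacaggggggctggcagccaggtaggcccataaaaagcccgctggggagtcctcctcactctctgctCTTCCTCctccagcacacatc
Mpo, chr11:87793534-87793783, plus strand: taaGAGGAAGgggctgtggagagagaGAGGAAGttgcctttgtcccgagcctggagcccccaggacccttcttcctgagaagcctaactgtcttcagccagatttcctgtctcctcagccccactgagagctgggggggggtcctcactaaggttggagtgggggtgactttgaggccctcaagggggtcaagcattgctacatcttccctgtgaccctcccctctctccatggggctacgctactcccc
Prtn3, chr10:79879417-79879666, plus strand: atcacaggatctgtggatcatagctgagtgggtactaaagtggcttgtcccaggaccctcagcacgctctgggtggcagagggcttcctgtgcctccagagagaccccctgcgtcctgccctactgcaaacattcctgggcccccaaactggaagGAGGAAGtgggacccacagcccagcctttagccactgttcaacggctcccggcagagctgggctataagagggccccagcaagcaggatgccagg

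The C/EBP letters occurred at 2 places in the Ngp window and at 1 each in those of Ltf and Lcn2, and had no match in those of Camp, Mpo and Prtn3. The PU.1 letters occurred at 2 places in the Mpo window and at 1 each in those of Prtn3 and Lcn2. Of all 32851 promoter windows of this length, 9.56% held the C/EBP letters and 10.6% the PU.1 letters. Promoters were listed for 35 of the 44 genes, in 39 windows. The C/EBP letters stood in 7 of 12 windows of secondary granule and neutrophil genes, in 3 of 12 windows of progenitor and primary granule genes, in 1 of 9 windows of monocyte and macrophage genes and in 1 of 6 windows of regulators. The PU.1 letters stood in 5 of 12, 5 of 12, 2 of 9 and 0 of 6 windows in the same order. No matches overlapped in the windows shown. A match is a run of letters and not a measured binding site.

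Over all 40 genes, the transcripts took 0.0795% and 0.0728% of the reads in LT-HSC 1 and 2, against 0.139% and 0.0833% in ST-HSC 1 and 2. ST-HSC 1 stood apart, and ST-HSC 2 lay close to LT-HSC 1. At least 2 reads were found for 26 and 18 of the 40 genes in LT-HSC, against 29 and 20 in ST-HSC, while 62% and 56.9% of all listed genes reached 2 reads in LT-HSC, against 56.8% and 56.6% in ST-HSC. Of the 34 genes read in any library, 19 were highest in ST-HSC 1 and 5 in each of the other libraries. Among all 16678 genes read in any library, 33.4% and 22% were highest in LT-HSC 1 and 2, against 21.5% and 23.1% in ST-HSC 1 and 2. Both LT-HSC libraries lay below both ST-HSC libraries for 9 of the 40 genes and above both for 3, beside 10.3% and 9.81% of all listed genes.

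**Figure D1:**
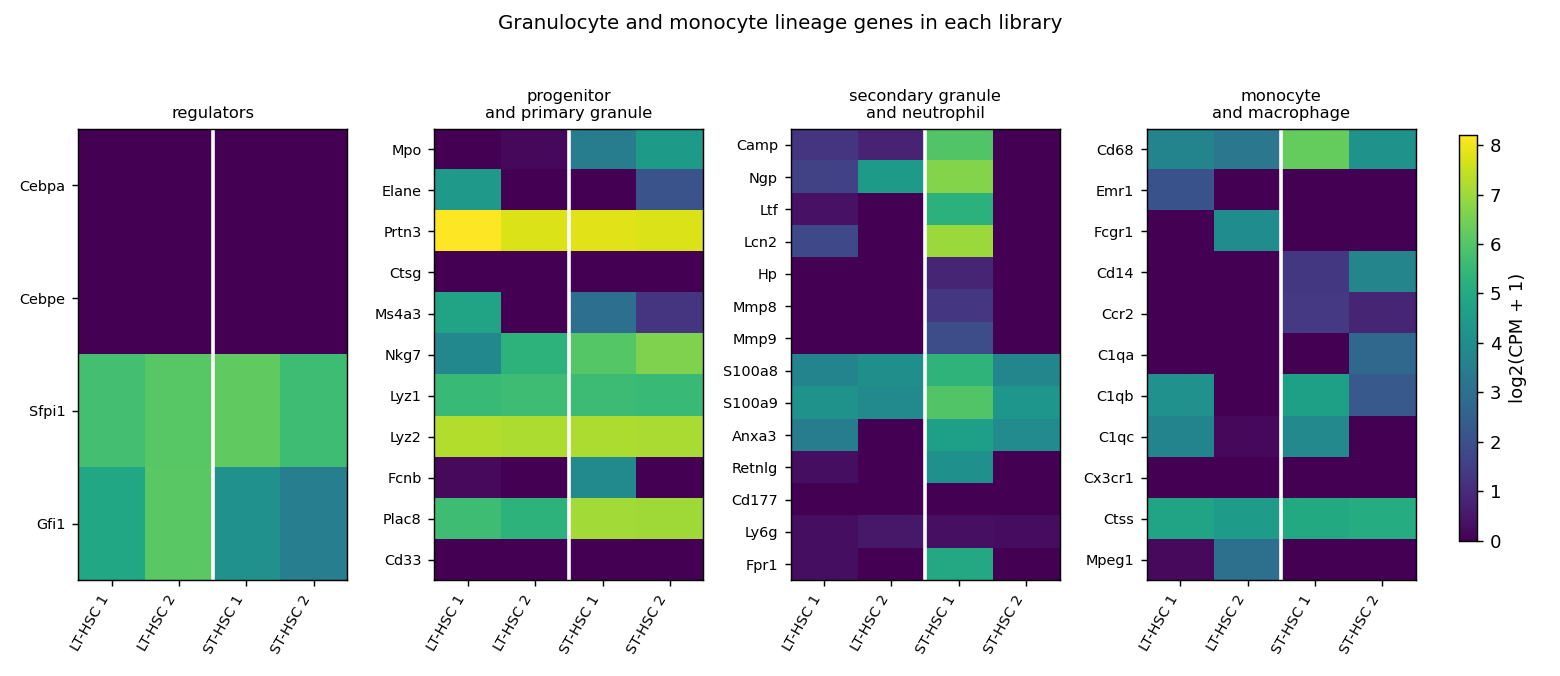
Level of each of the 40 lineage genes with a row, as log2(CPM + 1), in the LT-HSC libraries (left of the white line) and the ST-HSC libraries (right of it), 1 panel for each gene group. Prtn3, Lyz1, Lyz2 and Sfpi1 were read at similar levels in all 4 libraries, while Ltf, Camp, Lcn2, Fpr1 and Retnlg were bright in ST-HSC 1 alone.

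Of the regulators, Sfpi1 and Gfi1 were read in every library, and Cebpa and Cebpe held at most 1 read in each. Sfpi1, which encodes PU.1, had 52.8 and 66.2 CPM in the LT-HSC libraries, against 72.6 and 49.8 CPM in the ST-HSC libraries. The groups overlapped, with a log2 fold change of -0.02 ± 0.441 (SE, limma). Gfi1, a transcriptional repressor that also restrains HSC proliferation, stood at 28.5 and 67.7 CPM in LT-HSC, against 16.7 and 10.3 CPM in ST-HSC. Both LT-HSC libraries were higher, but the LT-HSC libraries differed from each other by more than the lower of them differed from ST-HSC 1. Its log2 fold change was 1.67 ± 0.787 (SE, limma adjusted p = 0.806), and 1.06 without LT-HSC 2. Cebpa, the factor that commits progenitors to the granulocyte-monocyte path, and Cebpe, the factor of the secondary granule stage, thus lay under the limit of 3 reads in both groups, and no fold can be given. With 2 of the 4 regulators unread, the median difference of the group was 0.00 on the log2(CPM + 1) scale, beside -0.01 over all tested genes and 0.00 over all listed genes.

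The progenitor and primary granule genes did not move as a block: Mpo, Plac8 and Nkg7 were low in LT-HSC, Prtn3, Lyz1 and Lyz2 were level, and Elane and Ms4a3 followed single libraries. Mpo, the gene of myeloperoxidase, had at most 1 read in LT-HSC 1 and 2 reads in LT-HSC 2, against 152 and 317 reads in ST-HSC 1 and 2. In CPM this was 0.0619 ± 0.0875 in LT-HSC and 15.7 ± 7.96 in ST-HSC (SD, n = 2 each), with no overlap. Its log2 fold change was -3.89 ± 1.02 (SE, limma adjusted p = 0.718, unadjusted p = 0.0119). The size depends on the value added, at -5.61 with 0.25 CPM and -1.98 with 5 CPM, and was -7.58 by limma-voom. Of the annotated Mpo transcript windows of 36 bases, 12.1% also lie in Gm11505, a gene on the opposite strand, and the kit's strand is not stated.

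Plac8, a small cysteine-rich protein gene of early progenitors and myeloid cells, stood at 48.9 and 38.2 CPM in LT-HSC, against 134 and 129 CPM in ST-HSC. The libraries agreed closely within each group, and the log2 fold change was -1.58 ± 0.366 (SE, limma adjusted p = 0.718, unadjusted p = 0.00723). Nkg7, which encodes a granule membrane protein of cytotoxic and myeloid cells, had 13.2 and 38.1 CPM in LT-HSC, against 64.4 and 97.3 CPM in ST-HSC. It too showed no overlap, with a log2 fold change of -1.77 ± 0.691 (SE, limma adjusted p = 0.767), and of -1.04 without LT-HSC 1. Mpo and Plac8 were the 2 of 21 tested genes of the list with an unadjusted p under 0.05, both lower in LT-HSC, beside 3.59% of all tested genes in that direction. Without ST-HSC 1 neither had such a p, while without ST-HSC 2 Plac8 did. With either ST-HSC library left out, Mpo no longer passed the filter on low values.

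The serine proteases of the primary granule split. Prtn3, the proteinase 3 gene, was at 289 and 217 CPM in LT-HSC, against 226 and 216 CPM in ST-HSC. These levels overlap and the highest library was 1.34 times the lowest. Prtn3 shares an exon overlap with Plppr3 on the opposite strand in the GENCODE annotation. None of the 36-base windows of its protein-coding transcripts occurs in a transcript of another gene, but its other transcripts were not searched. Elane, the neutrophil elastase gene that lies beside Prtn3, had 20.2 CPM in LT-HSC 1 and at most 1 read in LT-HSC 2, against at most 1 read in ST-HSC 1 and 3.30 CPM in ST-HSC 2. Each group thus held a library with the transcript and one without it. Ctsg, the cathepsin G gene, had at most 1 read in every library. Primary granule proteases that promyelocytes make together were therefore not read together here.

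Ms4a3, a membrane protein gene of granulocyte-monocyte progenitors, followed LT-HSC 1 as Elane did, with 26.9 CPM there and at most 1 read in LT-HSC 2, against 7.05 and 1.35 CPM in ST-HSC 1 and 2. Fcnb, which encodes the secreted lectin ficolin B, had 2 reads in LT-HSC 1 and at most 1 in LT-HSC 2, against 207 reads in ST-HSC 1 and at most 1 in ST-HSC 2. Cd33, a sialic acid-binding receptor gene, had at most 1 read in every library. The median difference of the 11 genes was 0.00. Leaving out LT-HSC 1 gave -1.04, and leaving out ST-HSC 1 gave 0.06.

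Of the lineage genes read in every library, the lysozyme genes varied least. Lyz1 stood at 45.8 and 49.5 CPM in LT-HSC, against 47.9 and 45.8 CPM in ST-HSC, and Lyz2, the lysozyme gene of macrophages and neutrophils, at 153 and 147 CPM in LT-HSC, against 146 and 140 CPM in ST-HSC. Their highest libraries were 1.08 and 1.09 times their lowest. Of all tested genes, 0.516% stayed within 1.1 times over the 4 libraries, or 0.919% of those with a mean of at least 40 CPM, a limit chosen after the values were seen. The genes are close copies: 28.5% of the 36-base windows of Lyz1 transcripts also occur in Lyz2, so the split of reads between them is uncertain.

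**Figure D2:**
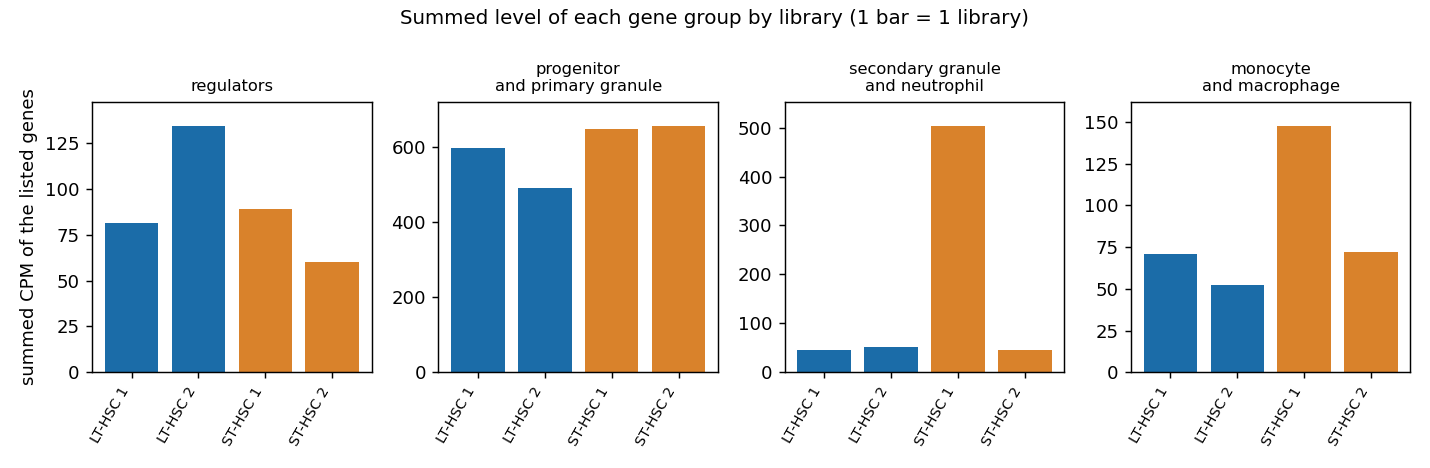
Summed CPM of each gene group in each library, with LT-HSC bars in blue and ST-HSC bars in orange, 1 bar for each library and a separate scale for each panel. The secondary granule and neutrophil genes summed to 45.7 and 52.3 CPM in LT-HSC, against 503 and 46.0 CPM in ST-HSC 1 and 2.

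The secondary granule and neutrophil genes were low in both LT-HSC libraries and in ST-HSC 2 and high in ST-HSC 1. Their 14 genes summed to 45.7 and 52.3 CPM in LT-HSC 1 and 2, against 503 and 46.0 CPM in ST-HSC 1 and 2. The sum in ST-HSC 1 was 9.61 times the next highest, and the sum in ST-HSC 2 lay between those of the LT-HSC libraries. Of the 13 genes read at all, 12 were highest in ST-HSC 1 and 1, Ly6g, was highest in LT-HSC 2. The comparison of groups thus rests on 1 library: the median difference of the 14 genes was -1.03, and it was 0.13 without ST-HSC 1, -1.09 without LT-HSC 1, -0.97 without LT-HSC 2 and -2.42 without ST-HSC 2. In bulk RNA, fewer cells of a type and less RNA per cell cannot be told apart.

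Among the secondary granule proteins, Ltf, the lactoferrin gene, had 4 reads in LT-HSC 1 and at most 1 in LT-HSC 2, against 567 reads in ST-HSC 1 and at most 1 in ST-HSC 2. Camp, which encodes the antimicrobial peptide cathelicidin, had 18 and 12 reads in LT-HSC, against 931 in ST-HSC 1 and at most 1 in ST-HSC 2. Lcn2, which encodes the iron-siderophore binding protein lipocalin 2, had 33 reads and at most 1 read in LT-HSC 1 and 2, against 1865 and at most 1 in ST-HSC 1 and 2. In each of these genes ST-HSC 1 held 44.9 times the next library or more, and the other libraries were near or at the lowest value.

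Ngp, a cystatin-like neutrophil granule protein gene, had more reads in LT-HSC 2 than the other secondary granule genes did. It stood at 2.06 and 21.0 CPM in LT-HSC, against 102 CPM in ST-HSC 1 and at most 1 read in ST-HSC 2. Of the genes of later neutrophils, Fpr1, a receptor gene for bacterial formyl peptides, had 3 reads and at most 1 read in LT-HSC 1 and 2, against 451 and at most 1 in ST-HSC 1 and 2. Retnlg, a resistin-like gene of mature neutrophils, had 3 reads and at most 1 read in LT-HSC, against 245 and at most 1 in ST-HSC. Both were high in the same library as the granule genes.

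Other neutrophil enzyme and plasma protein genes were weak even there. Mmp9, the gelatinase B gene, Mmp8, the neutrophil collagenase gene, and Hp, the haptoglobin gene, had at most 1 read in each LT-HSC library and in ST-HSC 2, against 42, 22 and 12 reads in ST-HSC 1. Ly6g, the gene of the surface antigen used to sort neutrophils, had 3 and 7 reads in LT-HSC, against 4 and 3 in ST-HSC, and was thus no higher in ST-HSC 1. Cd177, a neutrophil surface glycoprotein gene, had at most 1 read in every library. For Ly6g, 6.51% of the 36-base windows also occur in other genes, with 3.31% in its family member Ly6i.

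The genes of the calprotectin pair were read in every library. S100a8 stood at 11.9 and 15.9 CPM in LT-HSC, against 39.6 and 12.6 CPM in ST-HSC, and S100a9 at 17.0 and 14.2 CPM in LT-HSC, against 61.5 and 18.9 CPM in ST-HSC. Outside ST-HSC 1 both lay within a narrow span, and in ST-HSC 1 they were 2.49 and 3.26 times the next library. The log2 fold changes were -0.67 ± 0.920 and -1.09 ± 0.854 (SE, limma adjusted p = 0.992 and 0.900), and without ST-HSC 1 they were 0.12 and -0.27. Anxa3, the annexin A3 gene, had 9.86 CPM and at most 1 read in LT-HSC 1 and 2, against 23.9 and 14.4 CPM in ST-HSC 1 and 2, with 2.84% of its windows shared with Gm42603 on the same strand.

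**Figure D3:**
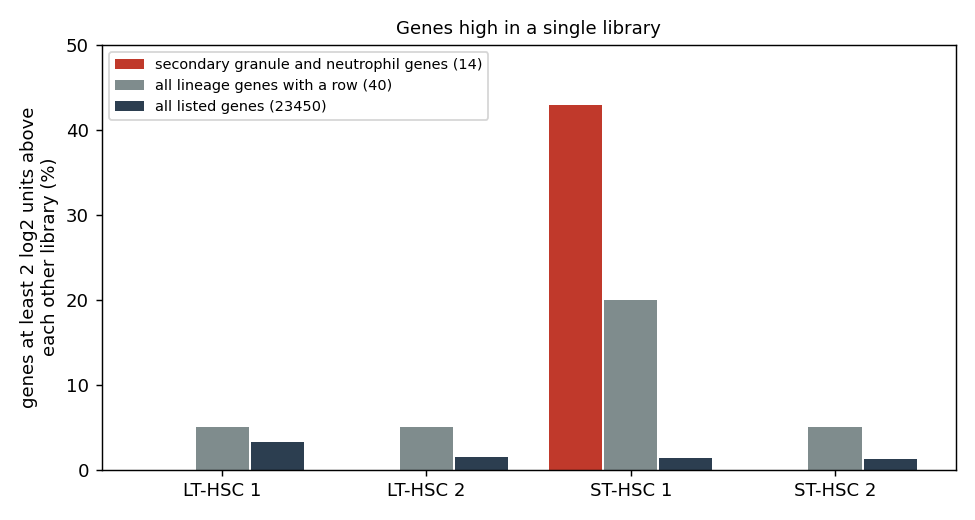
Share of genes that stood at least 2 above each other library on log2(CPM + 1), a limit chosen after the values were seen, for each library in turn; bars show the 14 secondary granule and neutrophil genes, all 40 lineage genes and all 23450 listed genes. In ST-HSC 1 the share was 42.9% for the secondary granule and neutrophil genes and 1.42% for all listed genes.

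Genes high in 1 library occurred in every library, and the lineage genes were placed against that background. On log2(CPM + 1), 770 and 351 genes stood at least 2 above each other library in LT-HSC 1 and 2 (3.28% and 1.5% of all listed genes), against 332 and 306 in ST-HSC 1 and 2 (1.42% and 1.3%). Of the 40 lineage genes, 2 did so in LT-HSC 1 (Elane and Emr1), 2 in LT-HSC 2 (Fcgr1 and Mpeg1), 8 in ST-HSC 1 and 2 in ST-HSC 2 (Cd14 and C1qa). The 8 were Camp, Ngp, Ltf, Lcn2, Retnlg, Fpr1, Fcnb and Cd68. Of the 8, 6 were secondary granule and neutrophil genes, while the monocyte and macrophage genes among those named stood apart in different libraries.

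The genes whose pattern was most like that of the 6 secondary granule and neutrophil genes past the filter were Adam8, Metrnl, Dtx2, Nebl and Adat3. Likeness was the Euclidean distance of centred log2(CPM + 1) over the 4 libraries, from 0.516 for Adam8 to 0.809 for Adat3. Adam8, a metalloprotease gene of leukocytes, stood at 1.15 CPM and at most 1 read in LT-HSC 1 and 2, against 18.1 CPM and at most 1 read in ST-HSC 1 and 2. With 4 libraries such a distance describes little beyond the height of ST-HSC 1.

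The monocyte and macrophage genes were low and scattered, with Ctss and Cd68 read in all libraries and the rest in 1 to 3 of them or none, and Cx3cr1 at most 1 read everywhere. Their 11 genes summed to 70.6 and 52.5 CPM in LT-HSC, against 147 and 72.3 CPM in ST-HSC. Cd68, a lysosomal membrane protein gene of macrophages, stood at 12.1 and 8.48 CPM in LT-HSC, against 75.9 and 17.1 CPM in ST-HSC. The groups did not overlap, but ST-HSC 1 was 4.44 times ST-HSC 2, and the log2 fold change was -1.75 ± 0.996 (SE, limma adjusted p = 0.837), and -0.70 without ST-HSC 1. Ctss, the cathepsin S gene of antigen-presenting cells, stood at 26.5 and 21.8 CPM in LT-HSC, against 30.7 and 32.6 CPM in ST-HSC, a small difference without overlap.

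Cd14, the lipopolysaccharide co-receptor gene, had at most 1 read in each LT-HSC library, against 23 and 181 reads in ST-HSC 1 and 2. Against 3 reads in each LT-HSC library, its ST-HSC mean of 6.86 CPM was at least 33.1-fold higher. That mean came mostly from ST-HSC 2, at 12.2 CPM, against 1.53 CPM in ST-HSC 1, so the bound does not hold for ST-HSC 1 alone. Ccr2, the chemokine receptor gene of inflammatory monocytes, had at most 1 read in each LT-HSC library, against 24 and 12 reads in ST-HSC. On the same floor its ST-HSC mean was at least 5.79-fold higher. Both were read in both ST-HSC libraries, at low levels, and Cd14 was highest in ST-HSC 2 rather than in ST-HSC 1.

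The C1q genes, whose 3 chains form the recognition unit of complement and are made together by macrophages, were not read together. C1qa had at most 1 read in each LT-HSC library and in ST-HSC 1, against 5.66 CPM in ST-HSC 2. C1qb stood at 16.8 CPM and at most 1 read in LT-HSC 1 and 2, against 24.1 and 3.91 CPM in ST-HSC 1 and 2. C1qc had 11.9 and 0.124 CPM in LT-HSC, the second being 2 reads, against 13.6 CPM in ST-HSC 1 and at most 1 read in ST-HSC 2. C1qb and C1qc were thus high in both libraries numbered 1, where C1qa was unread.

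The remaining macrophage genes were read in LT-HSC and not in ST-HSC. Fcgr1, the high-affinity IgG receptor gene, had 242 reads in LT-HSC 2 and at most 1 in each other library. Mpeg1, which encodes the pore-forming protein perforin-2, had 2 and 116 reads in LT-HSC, against at most 1 in each ST-HSC library. Emr1, the gene of the F4/80 antigen (now Adgre1), had 42 reads in LT-HSC 1 and at most 1 in each other library. None of the 3 was high in both libraries of a group. The median difference of the 11 genes was -0.38, and it was -1.12 without LT-HSC 1, 0.00 without LT-HSC 2, -0.22 without ST-HSC 1 and -0.34 without ST-HSC 2.

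**Figure D4:**
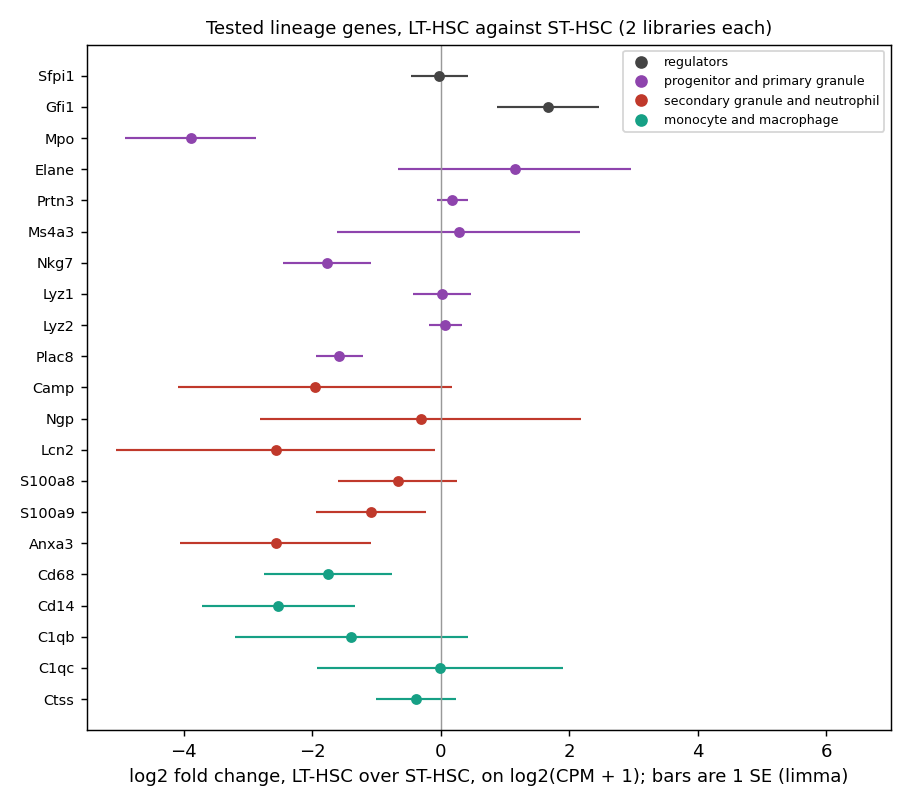
Log2 fold change of LT-HSC over ST-HSC on log2(CPM + 1) for the 21 lineage genes past the filter on low values, with bars of 1 SE from limma and colours for the 4 gene groups. Plac8, at -1.58, has the narrowest bar among the lower genes, and the bars of Camp, Ngp and Lcn2 span more than 4 log2 units end to end.

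Only 21 of the 40 genes reached 1 CPM in 2 libraries and were tested. Ltf, Fpr1, Retnlg and Fcnb were among the 19 that did not, because they were high in 1 library. None of the 21 passed the adjusted threshold of limma (0% of all tested genes), while 0 were higher and 2 lower at an unadjusted p under 0.05. With 2 libraries against 2, an exact 2-sided permutation test of any 1 value cannot give a p under 0.333.

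The other genes of the pathway were read from lists of growth factor receptors, further regulators and mature myeloid genes, 36 of 37 with a row. None passed limma over all genes, with 26 tested, and 1 was higher and 2 lower at an unadjusted p under 0.05, beside 2.92% and 3.59% of all tested genes. All 8 receptor genes were read in every library. Csf2rb, the common beta chain of the receptors for GM-CSF, IL-3 and IL-5, stood at 39.8 and 22.1 CPM in LT-HSC, against 84.2 and 113 CPM in ST-HSC. It was lower in both LT-HSC libraries, with a log2 fold change of -1.69 ± 0.507 (SE, limma adjusted p = 0.718). Flt3, the cytokine receptor gene of multipotent progenitors, had 6.50 and 22.0 CPM in LT-HSC, against 39.0 and 69.6 CPM in ST-HSC. Csf2ra, the alpha chain gene of the GM-CSF receptor, went the other way, at 61.4 and 50.9 CPM in LT-HSC, against 35.4 and 27.4 CPM in ST-HSC. Csf2rb and Csf2rb2 are close copies, so the split of reads between them is uncertain.

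Of the further regulators, none had an unadjusted p under 0.05. Zeb2, a gene of a zinc-finger transcriptional repressor, stood at 152 and 148 CPM in LT-HSC, against 93.1 and 126 CPM in ST-HSC. Runx1, a core-binding factor gene needed to form HSCs, was at 234 and 165 CPM in LT-HSC, against 202 and 81.1 CPM in ST-HSC. Gfi1b, the erythroid and megakaryocyte relative of Gfi1, was at 310.4 and 216.0 CPM in LT-HSC, against 229 and 190.2 CPM in ST-HSC. The last pair overlapped between the groups, and Zeb2 did not.

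Of the mature myeloid genes, Clec7a and Ncf4 had the smallest p. Clec7a, which encodes the beta-glucan receptor Dectin-1, stood at 29.5 and 33.9 CPM in LT-HSC, against at most 1 read in each ST-HSC library. Against 3 reads in each ST-HSC library its LT-HSC mean was at least 158-fold higher (limma adjusted p = 0.718). Ncf4, which encodes a cytosolic subunit of the phagocyte oxidase, had 7 and 5 reads in LT-HSC, against 1435 and 467 in ST-HSC. Its log2 fold change was -5.30 ± 1.09 (SE, limma adjusted p = 0.718). Clec7a and Ncf4 differed between the groups in both libraries, in opposite directions.

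Other genes of the oxidase and of neutrophil surface proteins, chosen after their values were seen, followed ST-HSC 1. Cybb, the membrane subunit of the oxidase, and Ncf1, a cytosolic subunit, had at most 1 read in each LT-HSC library and in ST-HSC 2, against 204 and 68 reads in ST-HSC 1. Ltb4r1, a leukotriene receptor gene, had 3 and 2 reads in LT-HSC, against 329 and 8 in ST-HSC. Cxcr2, the chemokine receptor gene of mature neutrophils, went the other way within ST-HSC, with at most 1 read in each LT-HSC library and in ST-HSC 1, against 51 in ST-HSC 2. Csf3r, the receptor gene for G-CSF, did not follow ST-HSC 1 either, at 70.1 and 209.7 CPM in LT-HSC, against 183 and 84.9 CPM in ST-HSC.

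**Figure D5:**
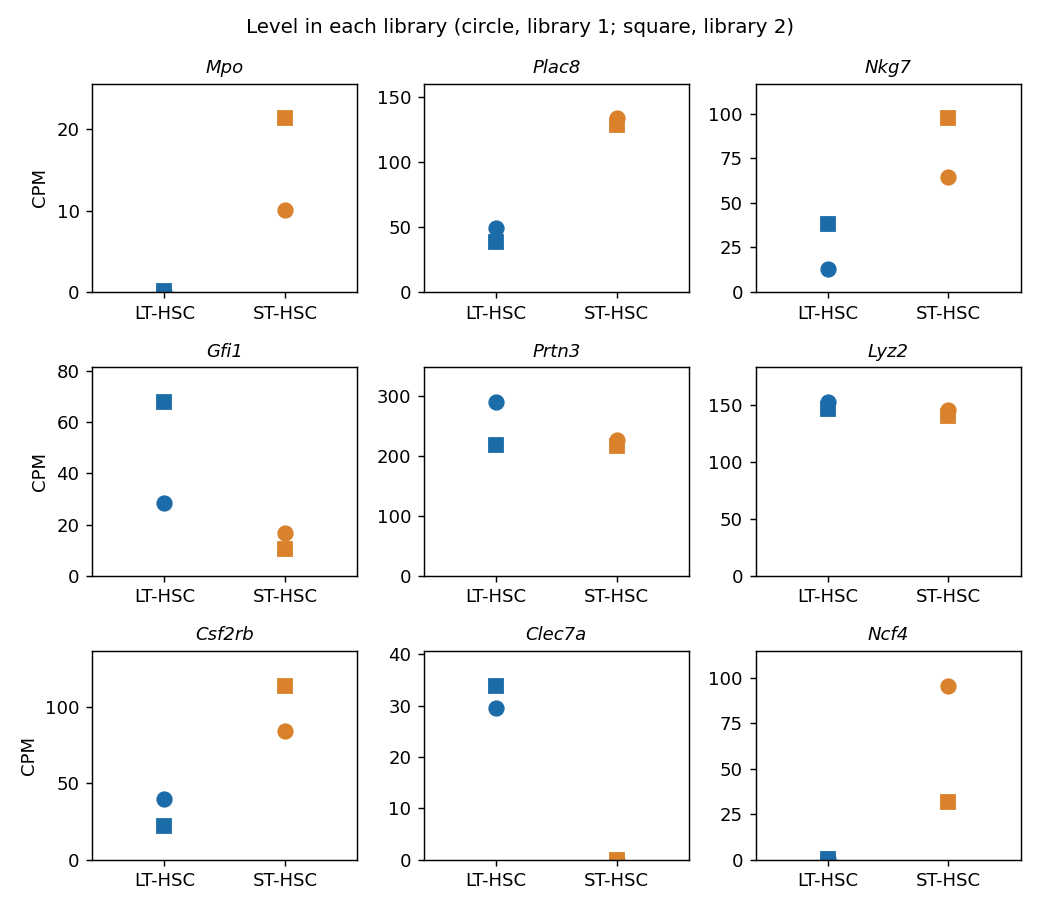
Level in CPM of 9 myeloid genes, chosen after their values were seen, in each library, with LT-HSC in blue at the left and ST-HSC in orange at the right of each panel; each panel starts at 0 and has its own scale. Mpo, Plac8, Nkg7, Csf2rb and Ncf4 lay lower in both LT-HSC libraries, Gfi1 and Clec7a higher, and Prtn3 was level, as was Lyz2 (at most 1.09 times between libraries).

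Markers of other lineages were read beside the granulocyte genes, and their part in the results was not tested. Erythroid markers, 9 genes, summed to 517 and 382 CPM in LT-HSC, against 536 and 507 CPM in ST-HSC. Klf1, Aqp1 and Ermap, 3 of the 8 tested, were lower in both LT-HSC libraries at an unadjusted p under 0.05, beside 3.59% of all tested genes. Klf1, an erythroid transcription factor gene, had 5 and 3 reads in LT-HSC, against 414 and 141 in ST-HSC (log2 fold change -3.76, limma adjusted p = 0.718). Hba-a1 was lower too, with a log2 fold change of -0.91. Epor went the other way, at 50.8 and 26.6 CPM in LT-HSC, against 7.44 and 21.2 CPM in ST-HSC. Car1, Car2 and Hbb-b1 overlapped between the groups, with log2 fold changes of -0.02, 0.11 and -0.13. Megakaryocyte and platelet markers, 8 genes with Gp6 unread, summed to 418 and 462 CPM in LT-HSC, against 304 and 203 CPM in ST-HSC. Without Vwf, the von Willebrand factor gene, the other 7 summed to 114 and 81.7 CPM in LT-HSC, against 258 and 193 CPM in ST-HSC. Itga2b, the integrin alpha IIb gene, stood at 2.52 and 5.07 CPM in LT-HSC, against 152 and 105 CPM in ST-HSC (log2 fold change -4.78, limma adjusted p = 0.718). It was the largest part of the ST-HSC sums without Vwf. Gp5 was highest in LT-HSC 1, at 17.9 and 2.17 CPM in LT-HSC, against 2.33 CPM and at most 1 read in ST-HSC. Both LT-HSC libraries lay below both ST-HSC libraries for 4 of the 8 genes and above both for 1, Vwf. Among all listed genes these shares were 10.3% and 9.81%. Neither the erythroid nor the megakaryocyte sum was high in ST-HSC 1 alone. Eosinophil markers, 6 genes with Epx, Prg3, Ear1 and Ear2 unread, summed to 0.153 and 1.24 CPM in LT-HSC, against 58.3 CPM and no read in ST-HSC, and the ST-HSC 1 sum came from Ccr3 and Prg2. T and NK cell markers, 9 genes with Cd3e, Cd3d, Cd2, Klrd1 and Ncr1 unread, summed to 2.29 and 7.24 CPM in LT-HSC, against 25.6 and 12.4 CPM in ST-HSC.

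B cell markers, 7 genes with Pax5 unread, summed to 219.7 and 129.9 CPM in LT-HSC, against 147 and 165 CPM in ST-HSC. Mast cell and basophil markers, 7 genes with Fcer1a, Ms4a2, Prss34, Cma1 and Gzmb unread, summed to 22.4 CPM and no read in LT-HSC, against 16.6 and 6.40 CPM in ST-HSC. These sums joined 2 genes that went opposite ways. Mcpt8 had 21.7 CPM in LT-HSC 1 and at most 1 read in each other library. Cpa3 had 0.688 CPM and at most 1 read in LT-HSC 1 and 2, and made up both ST-HSC sums. Dendritic cell markers, 6 genes with Itgax unread, summed to 68.5 and 70.8 CPM in LT-HSC, against 104 and 113 CPM in ST-HSC. That difference lay mostly in Flt3, given above, at 6.50 and 22.0 CPM in LT-HSC, against 39.0 and 69.6 CPM in ST-HSC. Bst2 overlapped between the groups, at 60.9 and 42.6 CPM in LT-HSC, against 57.5 and 43.4 CPM in ST-HSC. Of these marker lists of other lineages, only the eosinophil list was near 0 in 3 libraries and above 50 CPM in ST-HSC 1. Of its 58.3 CPM there, Ccr3 held 50.5 CPM and Prg2 7.84 CPM, so the sum describes mostly 1 gene. For the secondary granule and neutrophil genes only the sum stayed well above 0 outside ST-HSC 1. LT-HSC 1, LT-HSC 2 and ST-HSC 2 had sums of 45.7, 52.3 and 46.0 CPM. At least 2 reads were found there for 10, 5 and 4 of the 14 genes, in that order. The median log2(CPM + 1) of the 14 was 0.34, 0.00 and 0.00, beside 4.79 for ST-HSC 1. Nearly all of the ST-HSC 2 sum lay in S100a8, S100a9 and Anxa3, at 12.6, 18.9 and 14.4 CPM.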

How the data were processed

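Per the labels' protocols, cDNA was made from 2000 cells per library with the SMARTer kit and sequenced by Illumina methods. TopHat (version not stated) and the mm9 build come from the submitters' processing notes. The counter, annotation, strand setting and treatment of shared reads were not given in the sources used here. The authors deposited 1 file per library, with a log2 value for 23450 genes. Every value standing for 2 to 100 reads lay within 0.1 of a whole read. Read as log2 CPM with genes of 0 or 1 read raised to the value of 1 read, the values above the lowest sum to within 0.00192% to 0.00442% of 1000000. Read as reads plus 1 they would fall short by 0.0853% to 0.116%. The shortfall of 288 to 578 reads per library is near what genes with 1 read would hold, beside 215 to 399 genes with 2 reads, so genes at the lowest value were set to 0.

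The members and lists were chosen with earlier results of these data known. LT-HSC was compared with ST-HSC, 2 libraries each, and fold changes are LT-HSC over ST-HSC. Genes reaching 1 CPM in 2 or more libraries were tested on log2(CPM + 1) with limma 3.58.1 (trend and robust shrinkage, statmod 1.5.0, R 4.3.3), which understates the change of low genes, with Benjamini-Hochberg adjustment over all tested genes and a threshold of 0.05. The test was tried on simulated reads, drawn with the same fixed dispersion for every gene and with no genes set high in a single library. That trial therefore does not show how the test performs on genes such as those high in ST-HSC 1 alone. Medians cover every listed member with a row, read or not. Named are all members, and of the other myeloid lists up to 3 genes with the smallest p (some items are not reported here); some more were picked with their values in view. The recovered reads of libraries of a group differed by more than sampling noise (chi-square over degrees of freedom 181.9 in LT-HSC and 142.8 in ST-HSC), so none was counted as a copy. Shared windows and exon overlaps were read from GENCODE M21 transcripts of GRCm38. The windows came from the protein-coding transcripts of each lineage gene, and the overlaps from all its exons. Alternatives were other added values, scaling, filters, shrinkage, limma-voom, the library number as a block and leaving out each library; treating the lowest values as 1 read was added after the values were seen.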

Additional observations from a re-analysis of the deposited data

How the results depend on the processing

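No gene and no lineage gene passed limma's adjusted threshold under any of the 13 alternatives run. At an unadjusted p under 0.05, the counts over all genes ran between 413 without ST-HSC 2 and 1118 without LT-HSC 2, beside 820. The median difference of the gene groups, over every gene with a row, ran between 0.00 and 0.12 for regulators, -1.04 and 0.06 for progenitor and primary granule genes, -2.42 and 0.13 for secondary granule and neutrophil genes, and -1.12 and 0.00 for monocyte and macrophage genes when 1 library was left out. Counting only genes past the filter, the medians were 0.82 for regulators and -1.39 for monocyte and macrophage genes. Of 21 tested lineage genes, 8 changed the sign of their log2 fold change in some alternative and 8 kept it in each. The remaining 5 (Camp, Cd14, Elane, Lcn2 and Mpo) kept it where fitted but missed the filter without some libraries. There, with no test, the differences turned to 1.03 for Camp and 0.91 for Lcn2 without ST-HSC 1 and to -1.05 for Elane without LT-HSC 1. With 0.25 CPM added and with limma-voom, the values were -0.39 and -2.07 for Ms4a3, 0.47 and 1.97 for Ngp, and 0.19 and 0.78 for C1qc. With a library left out, they ran between -0.29 and 0.24 for Sfpi1, -0.02 and 0.39 for Prtn3, -2.12 and 2.68 for Ms4a3, -0.03 and 0.08 for Lyz1, -3.65 and 3.04 for Ngp, -1.46 and 0.12 for S100a8, -3.47 and 0.68 for C1qb, and -1.94 and 1.75 for C1qc. The cause was not tested. With the library number as a replicate block, 0 genes passed, 887 had an unadjusted p under 0.05, and Nkg7 joined Mpo and Plac8 among the lineage genes, as it did with 5 CPM added and without LT-HSC 2. Other lineage genes with such a p were Anxa3 and Gfi1 without LT-HSC 1, and Camp and Lcn2 without ST-HSC 2. No label says what a shared number stands for, and deviations of same-numbered libraries correlated at 0.0511 over 12608 genes. At 3 reads a library, levels under 0.186 to 0.229 CPM could not be told from none.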
